A study of Mus musculus with 8 samples.

Results

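Adhesion molecules hold a dendritic cell to the matrix, to vessel walls and to the T cells it presents antigen to. The set described here has 9 member genes, listed by name, and each was measured by the 1 row (probe set) of the array that carries only its symbol. They are 9 of 19938 genes measured with a symbol of their own. By role they are ligands of the leukocyte integrin LFA-1 (Icam1, Icam2 and F11r), other immunoglobulin-type molecules (Pecam1 and Alcam), the carriers of selectin and hyaluronan binding (Selplg and Cd44) and molecules of epithelial contacts (Cdh1 and Epcam).

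RNA had come from the spleen of untreated mice with a yellow fluorescent protein reporter, EYFP, for Il12b, the gene of the p40 subunit of interleukin 12. All 8 samples were cells without lineage markers, with no or low BST2, high CD11c and CD8α, a gate that holds the XCR1+ dendritic cells of the spleen, though XCR1 itself was not among the sort markers. The immature fraction lacked CCR7 and reporter (n = 3), a matured fraction had CCR7 without reporter and is called CCR7+Il12b- (n = 3), and the other matured fraction had both and is called CCR7+Il12b+ (n = 2). The question of the series is which genes change when some of these cells mature without infection. The sources used here give neither the age of the mice, nor how many mice went into a sample, nor which arrays had the smaller of the RNA inputs. Separate animals behind the replicates are thus not assured, and the p-values speak only of the scatter among these arrays, which may be technical.

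As background, ICAM-1 and ICAM-2 are bound by LFA-1 on T cells and other leukocytes, and ICAM-1 on a dendritic cell stabilises its contact with a T cell. Dendritic cells carry LFA-1 themselves, and JAM-A, the product of F11r, pairs with itself at tight junctions and also binds LFA-1. Mature dendritic cells entering lymph vessels and lymph nodes change their adhesion molecules along with their chemokine receptors.

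Values are log2 expression, so a difference of 1 is a doubling. Olfactory and vomeronasal receptors are not thought to be used in dendritic cells, and 95% of their genes lay below a level of 4.98, which serves as the background mark. Array medians lay between 5.25 and 5.46. On the first principal component, which held 77.1% of the variance, CCR7+Il12b- replicate 3 (30.1) lay apart from replicates 1 and 2 (8.20 and 13.4), toward the CCR7+Il12b+ samples (52.2 and 53.6), and calls of named genes that ended without it are given as such. All 12 markers of XCR1+ dendritic cells looked at were above the mark in each fraction, while their summed linear level fell from 22100 to 23600 in immature samples to 14000 to 17400 in CCR7+Il12b- and 9880 to 11300 in CCR7+Il12b+ samples. In bulk samples fewer cells of a type and less RNA per cell cannot be told apart.

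The promoters of members that moved are shown first, since Icam1 and F11r rose together and Alcam went the other way. RefSeq's promoter table of build GRCm38.p6 held 5 of the 9 members (F11r, Icam1, Alcam, Epcam and Cd44), and the 250 bases before each start were searched on both strands for the E-box CACCTG, the core bound by Snail and ZEB factors, and for the κB consensus of NF-κB. The E-box was in 4 of these 5 windows and in 17.2% of all 32851 windows of the same length in the table. It began 204 bases before the start of Icam1, 122 before that of F11r and 40 before that of Alcam, and Epcam had it at 187 and, on the other strand, at 19 bases, while the window of Cd44 had none. The κB consensus was in 0 of 5 member windows and in 7.25% of all windows, which says only that those letters are not in these windows. Only the strict consensus was searched for. Sites that differ from it by a base, such as tggaaattcc in the Icam1 window, were not counted, so κB sites may still be present. The sequences run 5′ to 3′ along the gene, with E-box letters in capitals, and the windows are chr9:21015690-21015939 (plus strand), chr1:171437311-171437560 (plus strand) and chr16:52453082-52453331 (minus strand).
Icam1: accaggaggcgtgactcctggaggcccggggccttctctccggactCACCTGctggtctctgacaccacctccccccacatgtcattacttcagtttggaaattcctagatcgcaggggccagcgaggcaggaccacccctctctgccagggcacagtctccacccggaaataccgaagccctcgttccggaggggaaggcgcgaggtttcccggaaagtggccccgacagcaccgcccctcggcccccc
F11r: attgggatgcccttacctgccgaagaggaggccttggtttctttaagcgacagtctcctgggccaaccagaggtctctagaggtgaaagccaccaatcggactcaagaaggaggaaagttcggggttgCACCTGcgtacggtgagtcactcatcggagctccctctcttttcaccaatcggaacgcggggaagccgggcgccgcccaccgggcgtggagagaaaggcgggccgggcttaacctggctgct
Alcam: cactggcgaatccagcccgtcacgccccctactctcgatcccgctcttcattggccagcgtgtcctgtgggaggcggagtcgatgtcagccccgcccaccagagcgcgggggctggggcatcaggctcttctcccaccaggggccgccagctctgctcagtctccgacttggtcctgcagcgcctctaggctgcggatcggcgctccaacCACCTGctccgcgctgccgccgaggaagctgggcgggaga
Members with the E-box went up (Icam1, F11r), down (Alcam) or stayed uncalled (Epcam). Cd44, the only member with a window but no E-box, was called higher in CCR7+Il12b- cells. Pecam1, which fell most, had no window. A single window without the E-box cannot show whether it goes with direction, and nothing is read from it.

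Over the set, the plainest movements were rises of F11r and Icam1 and a fall of Pecam1, each at least 2-fold in both matured fractions. In CCR7+Il12b- against immature cells 3 members rose (F11r, Icam1 and Cd44), 1 fell (Pecam1) and 5 were not called. A gene is called where limma's p, adjusted by Benjamini-Hochberg over all genes, is under 0.05. That is 4 of 9 beside 23.6% of all genes called (9.10% higher and 14.5% lower), or 35.0% of those above the background mark in some fraction. In CCR7+Il12b+ against immature cells 3 rose (F11r, Icam1 and Selplg) and 2 fell (Pecam1 and Alcam), 5 of 9 beside 32.0% of all genes (14.1% higher and 17.9% lower) and 46.4% of those above the mark. Between the matured fractions 1 of 9 was called, Pecam1, which was lower in CCR7+Il12b+ cells, beside 7.08% of all genes (2.61% higher and 4.47% lower). The 9 include Cdh1 and Epcam, which were below the mark in every fraction, and of the other 7 members 4 and then 5 were called. No test set these shares against the background, and nothing is read from them. The median member difference from immature cells was 0.24 for CCR7+Il12b- and 0.25 for CCR7+Il12b+ cells, beside 0.06 and 0.09 over all genes, and both comparisons share the immature samples. With each array centred on its median the calls were 2 up and 2 down in both comparisons, as Alcam joined the falls in the first and Cd44 and Selplg each lost a call.

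**Figure D1:**
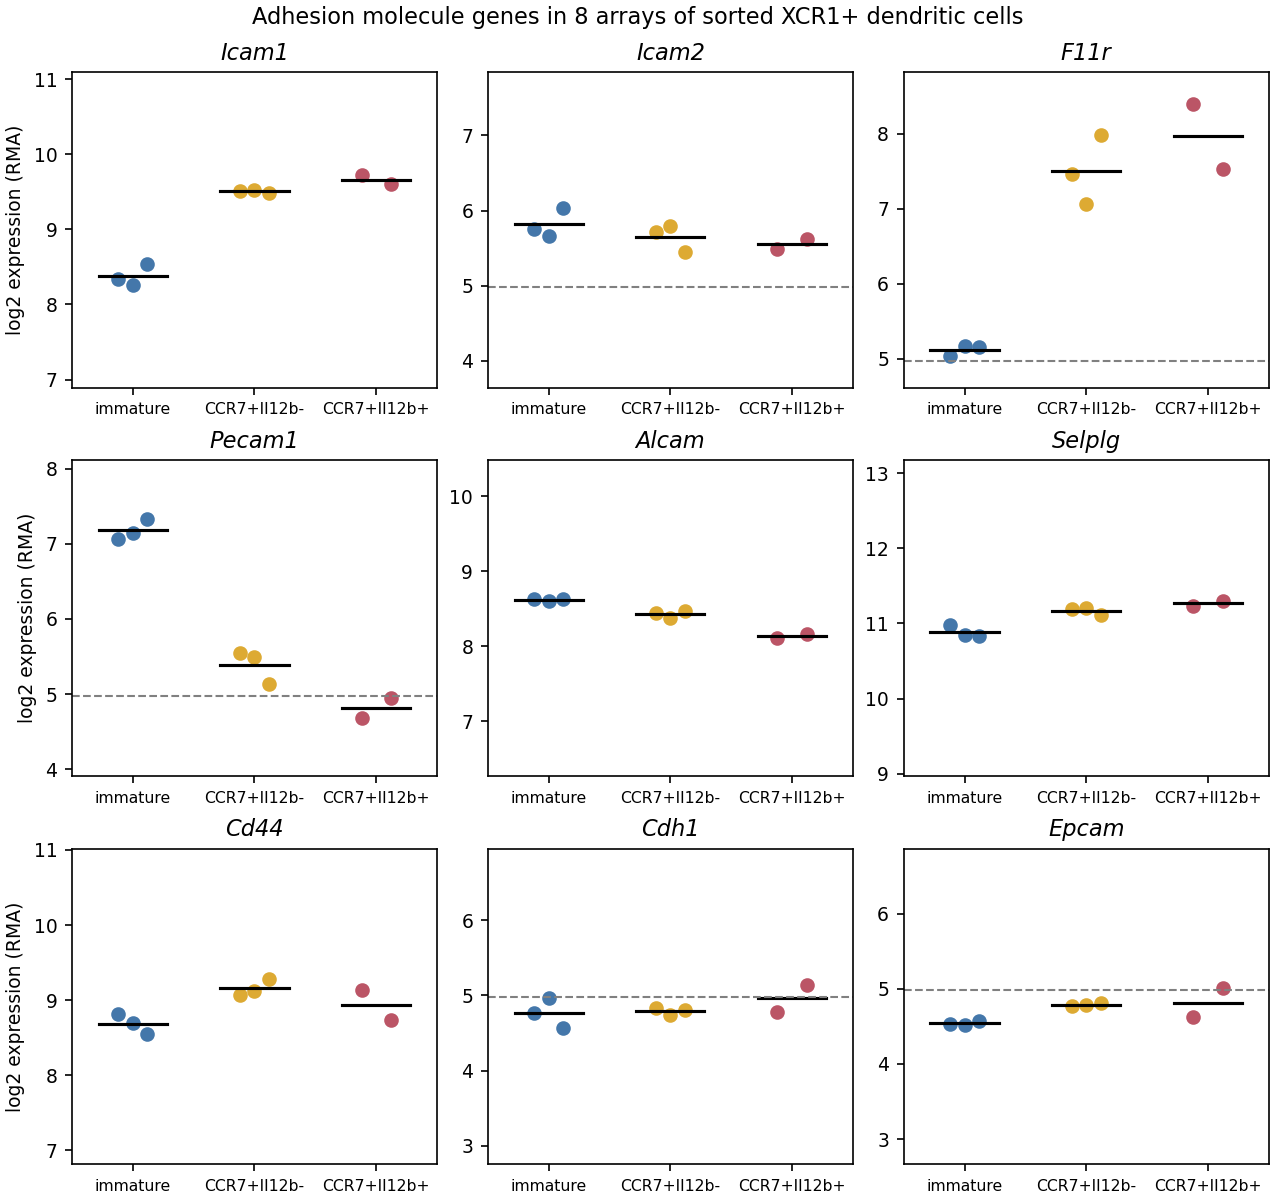
Log2 expression (y axis) of the 9 members in each of 8 arrays, by sorted fraction (x axis); points are arrays, black bars are group means, the dashed line is the background mark of 4.98, and every panel spans the same number of log2 units. F11r and Icam1 sit higher and Pecam1 lower in every array of both matured fractions than in any immature array, while Cdh1 and Epcam lie near or below the mark.

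**Figure D2:**
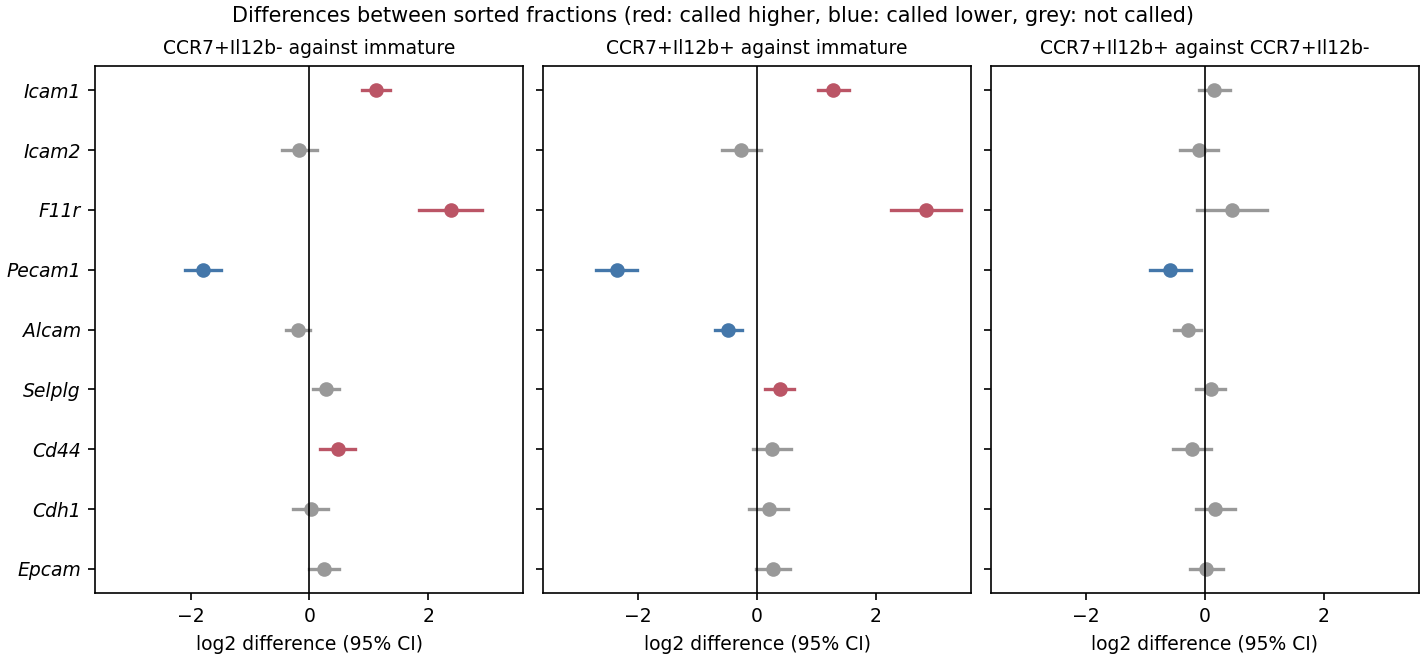
Log2 difference (x axis, point) and its 95% confidence interval from the limma fit (line) for each member (y axis) in the 3 pairwise comparisons; red is called higher, blue called lower and grey not called. The largest are those of F11r (2.84) and Pecam1 (-2.36) in CCR7+Il12b+ against immature cells, while Pecam1 alone is called when the matured fractions are compared.

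F11r encodes JAM-A, and it rose most of all members. The log2 level of its probe set, 10351623, was 5.04, 5.18 and 5.15 in the immature samples, just above the background mark. It was 7.46, 7.07 and 7.98 in the CCR7+Il12b- samples and 8.39 and 7.53 in the CCR7+Il12b+ samples. Every matured sample lay well above every immature one, and the matured fractions overlapped each other. F11r was 5.20-fold higher in CCR7+Il12b- than in immature cells (log2 difference 2.38 ± 0.24 SE, n = 3 and 3, adjusted p = 4.62e-05 in limma's moderated test), and 0.497% of all genes rose more. In CCR7+Il12b+ cells it was 7.16-fold higher (2.84 ± 0.27, n = 2 and 3, adjusted p = 1.13e-05 in the same fit). The matured fractions differed by 0.46 (95% interval -0.13 to 1.05, adjusted p = 0.429 in limma), so a further rise of up to about 1 log2 unit is within the error of these samples. F11r also had the widest spread among the members within both matured fractions (SD 0.45 and 0.61). Without CCR7+Il12b- replicate 3, the highest of its fraction, the rise in that fraction was 2.14 (limma adjusted p = 0.000127) and the difference between matured fractions 0.70 (adjusted p = 0.123).

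Icam1 (probe set 10583519), the main LFA-1 ligand on antigen-presenting cells, rose about as much in both matured fractions. Immature samples had levels of 8.34, 8.26 and 8.54. The CCR7+Il12b- samples were at 9.51, 9.53 and 9.48, a range of 0.05, and the CCR7+Il12b+ samples at 9.72 and 9.61. Immature samples lay below all matured ones, and the CCR7+Il12b+ samples lay above all CCR7+Il12b- ones by a margin smaller than the spread among the immature samples. Icam1 was 2.18-fold higher in CCR7+Il12b- than in immature cells (1.12 ± 0.11 SE, limma adjusted p = 2.96e-05) and 2.43-fold higher in CCR7+Il12b+ cells (1.28 ± 0.12, adjusted p = 1.01e-05). The direct difference of 0.16 was not called (95% interval -0.10 to 0.42, adjusted p = 0.583 in limma).

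Icam2, a second LFA-1 ligand that is best known from resting endothelium, did not share that rise. Probe set 10392177 read 5.76, 5.66 and 6.03 in immature, 5.71, 5.79 and 5.45 in CCR7+Il12b- and 5.49 and 5.62 in CCR7+Il12b+ samples. Both CCR7+Il12b+ samples were below all immature ones, while the CCR7+Il12b- samples overlapped each of the other fractions. Differences were -0.17 (95% interval -0.46 to 0.12, limma adjusted p = 0.408) and -0.27 (-0.59 to 0.06, adjusted p = 0.201) against immature cells. These intervals hold no rise above 0.12 and 0.06 log2 units, while those of Icam1 began at 0.89 and 1.02.

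Pecam1 encodes CD31, which binds itself on neighbouring cells and carries inhibitory signalling motifs in its tail, and it fell most. Its level (probe set 10392221) was 7.06, 7.14 and 7.34 in immature samples. It was 5.54, 5.50 and 5.14 in CCR7+Il12b- and 4.68 and 4.95 in CCR7+Il12b+ samples, the latter both below the background mark. No 2 fractions overlapped. Pecam1 was 3.45-fold lower in CCR7+Il12b- than in immature cells (-1.79 ± 0.14 SE, limma adjusted p = 6.86e-06), and 0.206% of all genes fell more. In CCR7+Il12b+ cells it was at least 4.60-fold lower than in immature cells, a bound in which the mark stands for samples below it (measured difference -2.36 ± 0.15, adjusted p = 8.19e-07 in limma). Between the matured fractions it was at least 1.33-fold lower in CCR7+Il12b+ cells (measured -0.58 ± 0.15, adjusted p = 0.0481 in limma). That last call rested on each sample: it ended when any 1 sample other than CCR7+Il12b- replicate 3 was left out (limma adjusted p from 0.0548 to 0.243), held without that replicate (-0.70, adjusted p = 0.0131), and ended with a replicate block (-0.60, adjusted p = 0.0887), median centring (0.0563), a random block (0.057), an intensity trend (0.0557) or a fit on the 2 fractions alone (0.097).

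Alcam encodes CD166, the ligand of CD6 on T cells, and its decline was small. On probe set 10439895 it read 8.63, 8.60 and 8.64 in immature, 8.44, 8.37 and 8.48 in CCR7+Il12b- and 8.11 and 8.17 in CCR7+Il12b+ samples. The fractions followed each other in that order without overlap, with SDs of 0.05 or less. The fall in CCR7+Il12b+ against immature cells was called (-0.48 ± 0.11 SE, 1.40-fold, limma adjusted p = 0.00434). The difference in CCR7+Il12b- cells was -0.19 (95% interval -0.40 to 0.02, adjusted p = 0.182 in limma, and 0.0412 with arrays centred on their medians). That between the matured fractions was -0.29 (-0.52 to -0.06, adjusted p = 0.153 in limma). Groups that do not overlap are common here, at 41.3%, 57.1% and 29.6% of all genes in the 3 comparisons, so the order of Alcam by itself is not unusual.

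Selplg encodes PSGL-1, the selectin ligand that lets leukocytes roll and that also binds CCR7's chemokines. Levels on its probe set, 10532744, were 10.98, 10.85 and 10.84 in immature, 11.19, 11.21 and 11.11 in CCR7+Il12b- and 11.23 and 11.30 in CCR7+Il12b+ samples. Matured samples were all above immature ones, by little. The rise in CCR7+Il12b+ cells was 1.30-fold (0.38 ± 0.11 SE, limma adjusted p = 0.0214), and it was lost without immature replicate 2 (adjusted p = 0.0764) or 3 (0.0774), without CCR7+Il12b+ replicate 2 (0.0964), with a replicate block (0.35, adjusted p = 0.0701) and after median centring (0.24, adjusted p = 0.12). In CCR7+Il12b- cells the difference of 0.28 was not called (limma adjusted p = 0.0622), though quantile normalization (0.0255), loess (0.0163), array weights (0.0109) and an intensity trend (0.0253) called it.

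Cd44, the hyaluronan receptor of activated leukocytes, was highest in the CCR7+Il12b- fraction. The values of probe set 10485405 were 8.81, 8.70 and 8.55 in immature, 9.07, 9.13 and 9.28 in CCR7+Il12b- and 9.14 and 8.74 in CCR7+Il12b+ samples. Of the CCR7+Il12b+ samples replicate 1 lay among the CCR7+Il12b- samples and replicate 2 among the immature ones. Cd44 was 1.39-fold higher in CCR7+Il12b- than in immature cells (0.47 ± 0.13 SE, limma adjusted p = 0.0218). That call was lost without immature replicate 2 (0.0675) or 3 (0.0997), without CCR7+Il12b- replicate 2 (0.0525) or 3 (0.0778) and after median centring (0.0657). In CCR7+Il12b+ cells the difference was 0.25 (95% interval -0.07 to 0.57, adjusted p = 0.217 in limma), and the matured fractions differed by -0.22 (-0.54 to 0.10, adjusted p = 0.508), so the order of the matured fractions is within the error.

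Cdh1, the gene of E-cadherin, and Epcam are best known in skin dendritic cells as genes of Langerhans cells, and here both had group means below the background mark in every fraction. Cdh1 (probe set 10575052) was at 4.77, 4.96 and 4.57 in immature, 4.83, 4.74 and 4.80 in CCR7+Il12b- and 4.78 and 5.14 in CCR7+Il12b+ samples. All fractions overlapped, and its differences against immature cells were 0.02 (95% interval -0.27 to 0.31, limma adjusted p = 0.923) and 0.20 (-0.13 to 0.52, adjusted p = 0.342). Epcam (probe set 10447383) was at 4.54, 4.52 and 4.58 in immature, 4.77, 4.79 and 4.81 in CCR7+Il12b- and 4.62 and 5.01 in CCR7+Il12b+ samples. All matured samples of Epcam lay above the immature ones, by 0.24 (limma adjusted p = 0.165) and 0.27 (adjusted p = 0.138), and neither was called. Without CCR7+Il12b+ replicate 1 the latter difference was 0.46 (limma adjusted p = 0.0198), and at these levels no fold is given.

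The chains of LFA-1, the integrin that binds these ligands, went the other way from Icam1 and F11r. Itgal and Itgb2 were at 8.48, 8.65 and 8.70 and at 9.80, 9.65 and 9.77 in immature samples. In CCR7+Il12b- samples Itgal was at 7.21, 7.43 and 6.93 and Itgb2 at 8.45, 8.74 and 8.14. In CCR7+Il12b+ samples Itgal was at 5.52 and 6.13 and Itgb2 at 6.61 and 6.40. No 2 fractions overlapped for either chain, and both stayed above the background mark. Itgb2 fell by 1.29 ± 0.15 (SE) in CCR7+Il12b- and by 3.23 ± 0.16 in CCR7+Il12b+ against immature cells, and by 1.94 ± 0.16 between the matured fractions (limma adjusted p = 0.000108, 1.52e-07 and 0.000163). Itgal fell by 1.42 ± 0.17, 2.79 ± 0.19 and 1.37 ± 0.19 (adjusted p = 0.000157, 1.13e-06 and 0.00171 in the same fit). These 6 calls held under each of the 19 alternatives run. Between the matured fractions, where Icam1 and F11r were not called, both chains were. Other α chains that pair with Itgb2 did not all do this. Itgax, the gene of CD11c, on which all cells were sorted, differed from immature cells by -0.06 ± 0.12 in CCR7+Il12b- (limma adjusted p = 0.775) and by -0.97 ± 0.13 in CCR7+Il12b+ cells (adjusted p = 0.000156). Itgam and Itgad had means between 4.91 and 5.16 in all fractions, near the mark, and were called in no comparison.

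**Figure D3:**
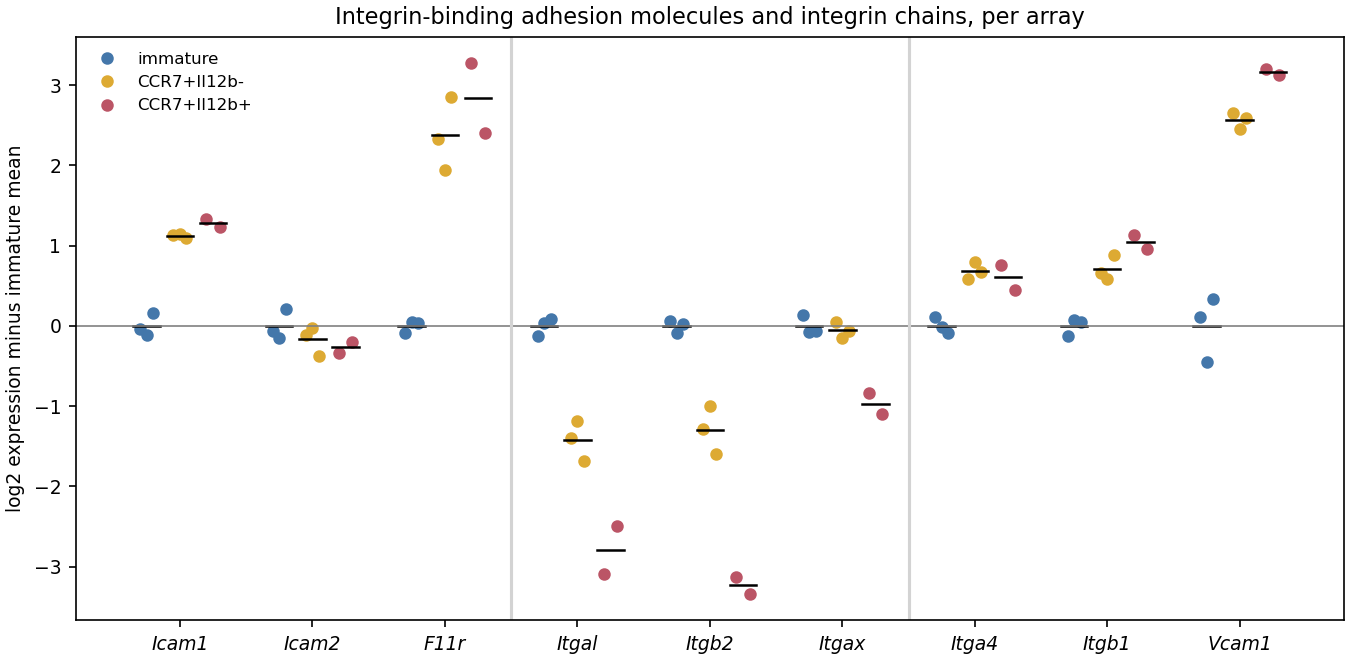
Log2 expression minus the gene's immature mean (y axis) in each array for 3 ligands (Icam1, Icam2, F11r), 3 chains of leukocyte integrins (Itgal, Itgb2, Itgax) and the chains Itga4 and Itgb1 with their ligand Vcam1 (x axis); points are arrays coloured by fraction, and black bars are group means. Itgb2 ends 3.23 below and F11r 2.84 above the immature mean in CCR7+Il12b+ samples, and Itgax is lower there only in the CCR7+Il12b+ fraction.

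Of 14 genes of these integrins and their activation, 3 rose and 4 fell in CCR7+Il12b-, 4 rose and 7 fell in CCR7+Il12b+ against immature cells, and 4 fell between the matured fractions (50.0%, 78.6% and 28.6% called). Of all genes 23.6%, 32.0% and 7.08% were called. Of genes above the background mark, as 13 of the 14 were, 35.0%, 46.4% and 10.8% were called. Median centring gave 2 up and 5 down, then 2 up and 7 down against immature cells. In CCR7+Il12b- cells 2 rose and 4 fell without any 1 immature or CCR7+Il12b- replicate. In CCR7+Il12b+ cells 2 rose and 7 fell without any 1 immature replicate. Itgb1 and Itga4, which together form the receptor VLA-4 for VCAM-1 and fibronectin, rose by 0.71 ± 0.12 (SE) and 0.68 ± 0.12 in CCR7+Il12b- cells (limma adjusted p = 0.00131 and 0.00162). Itgb1 was up by 1.05 ± 0.13 in CCR7+Il12b+ cells (adjusted p = 1e-04 in limma). Itga4 read 11.28 and 10.96 in the CCR7+Il12b+ samples, both above the immature 10.62, 10.50 and 10.43. Fermt3, the gene of kindlin-3, which activates leukocyte integrins, fell by 0.78 ± 0.14 and 1.28 ± 0.16 in the matured fractions. Itgax differed by -0.91 ± 0.13 between the matured fractions (limma adjusted p = 0.00189), as did Apbb1ip, an adaptor that recruits talin to integrins, by -0.65 ± 0.12 (adjusted p = 0.00998, and 0.0685 without CCR7+Il12b+ replicate 2).

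Other immunoglobulin-type adhesion molecules were called more often upward than downward against immature cells. Of 31 measured, 14 rose and 4 fell in CCR7+Il12b- cells (58.1% called) and 9 rose and 5 fell in CCR7+Il12b+ cells (45.2%). Over all genes 23.6% and 32.0% were called (9.10% higher and 14.5% lower, then 14.1% higher and 17.9% lower). Of genes above the background mark, as 23 of the 31 were, 35.0% and 46.4% were called. For the 31, median centring gave 10 up and 5 down, and 7 up and 6 down. Vcam1, the ligand of VLA-4, was 2.57 ± 0.17 (SE) and 3.17 ± 0.19 higher, and Pvr, the ligand of the T and NK cell receptors DNAM-1 and TIGIT, 2.05 ± 0.17 and 3.16 ± 0.19 higher (limma adjusted p at most 9.83e-06 for both genes). Esam rose by 1.04 ± 0.15 and 1.41 ± 0.17. Cd48, a partner of 2B4 and CD2, fell by 2.07 ± 0.23 and Cadm1, an adhesion molecule typical of XCR1+ dendritic cells, by 1.42 ± 0.11 in CCR7+Il12b+ cells. Between the matured fractions 1 rose and 5 fell (19.4% called, beside 7.08% of all genes and 10.8% of those above the mark). The rise was that of Pvr (1.10 ± 0.19), and the falls included Cd48 (-1.02 ± 0.23), Cadm1 (-0.98 ± 0.11) and Sirpa (-0.91 ± 0.20). Of these, the calls of Pvr and Sirpa ended without CCR7+Il12b+ replicate 1 (limma adjusted p = 0.0594 and 0.163), that of Sirpa also without CCR7+Il12b- replicate 1 (0.050), and that of Cd48 without either replicate 1 or 2 of the matured fractions (0.0643 to 0.164) and in a fit on the 2 fractions alone (0.0605).

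Enzymes that modify PSGL-1 moved in both directions while Selplg itself changed little. Of 17 measured genes of selectins and these enzymes, 2 rose and 5 fell in CCR7+Il12b- and 3 rose and 5 fell in CCR7+Il12b+ cells (41.2% and 47.1% called). Of all genes 23.6% and 32.0% were called, and 35.0% and 46.4% of those above the background mark, as 16 of the 17 were. Fut4, a fucosyltransferase that helps to build the selectin-binding glycan, rose by 1.13 ± 0.12 (SE) and 1.45 ± 0.13 (limma adjusted p = 5.22e-05 and 7.51e-06). C1galt1c1 went down, with measured differences of -1.15 and -1.29 (limma adjusted p = 0.00694 and 0.00461). The latter was -1.06 without CCR7+Il12b+ replicate 2. Tpst1, which sulphates tyrosines of PSGL-1, fell by 0.85 ± 0.15 and 1.72 ± 0.17 (adjusted p = 0.00207 and 1.67e-05 in limma) and by 0.87 ± 0.17 between the matured fractions, a call that ended without CCR7+Il12b+ replicate 1 or 2 (adjusted p = 0.0642 and 0.0737). The sialyltransferase genes went apart, with St3gal3 up by 1.35 ± 0.14 in CCR7+Il12b+ cells and St3gal6 down by 0.86 ± 0.11 in CCR7+Il12b- cells.

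Among 18 measured genes of CD44 linkers and hyaluronan, 2 rose and 2 fell in CCR7+Il12b- and 2 rose and 3 fell in CCR7+Il12b+ cells (22.2% and 27.8% called, beside 23.6% and 32.0% of all genes). After median centring 0 rose and 4 fell in both. The rises in CCR7+Il12b- cells numbered 0 as well, beside 2 falls, without any 1 of the immature replicates or CCR7+Il12b- replicate 1 or 3. In CCR7+Il12b+ cells 1 rose and 2 fell without immature replicate 3, and 0 rose and 2 fell without CCR7+Il12b+ replicate 2. Ezr, the gene of ezrin, which ties CD44 to actin, fell by 0.41 ± 0.10 (SE, limma adjusted p = 0.0103, and 0.0519 after loess) and 0.67 ± 0.11 (adjusted p = 0.000642). Hmmr, a hyaluronan receptor gene that is also a mitotic spindle gene, fell by 1.68 ± 0.16 in CCR7+Il12b- and at least 3.45-fold in CCR7+Il12b+ cells.

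Genes of junctions moved in both directions, with a few large changes. Of 24 other cadherins and catenins, 2 rose and 3 fell in CCR7+Il12b- and 2 rose and 2 fell in CCR7+Il12b+ cells (20.8% and 16.7%, beside 23.6% and 32.0% of all genes). After median centring 0 rose and 3 fell in CCR7+Il12b- cells, and 2 rose and 2 fell in CCR7+Il12b+ cells. Between the matured fractions limma called 0, with 3 at an unadjusted p under 0.05, while loess or leaving out CCR7+Il12b- replicate 3 gave 1 up and 1 down. In CCR7+Il12b- cells 0 rose and 3 fell without immature replicate 1, 0 rose and 2 fell without immature replicate 3, and 1 rose and 2 fell without CCR7+Il12b- replicate 3. In CCR7+Il12b+ cells 5 rose and 2 fell without CCR7+Il12b+ replicate 1. Ctnnd1, the gene of p120-catenin, which holds cadherins at the membrane, fell by 1.06 ± 0.17 (SE) and 1.44 ± 0.19 (limma adjusted p = 0.000833 and 0.000113). Ctnna1, the gene of α-catenin, rose by 0.79 ± 0.12 in CCR7+Il12b+ cells. Of 16 tight junction and EpCAM partner genes, 3 rose and 1 fell, then 3 rose and 2 fell (25% and 31.2%, beside 23.6% and 32.0% of all genes). In CCR7+Il12b- cells 2 were up and 0 down without any 1 of these: immature replicate 1, immature replicate 2 and CCR7+Il12b- replicate 3. Cldn1, a claudin of tight junctions, rose by 2.20 ± 0.21 and 1.72 ± 0.23 (adjusted p = 2.59e-05 and 0.000145 in limma). Afdn, whose product afadin binds nectins and JAM-A, fell by 0.83 ± 0.13 in CCR7+Il12b+ cells.

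**Figure D4:**
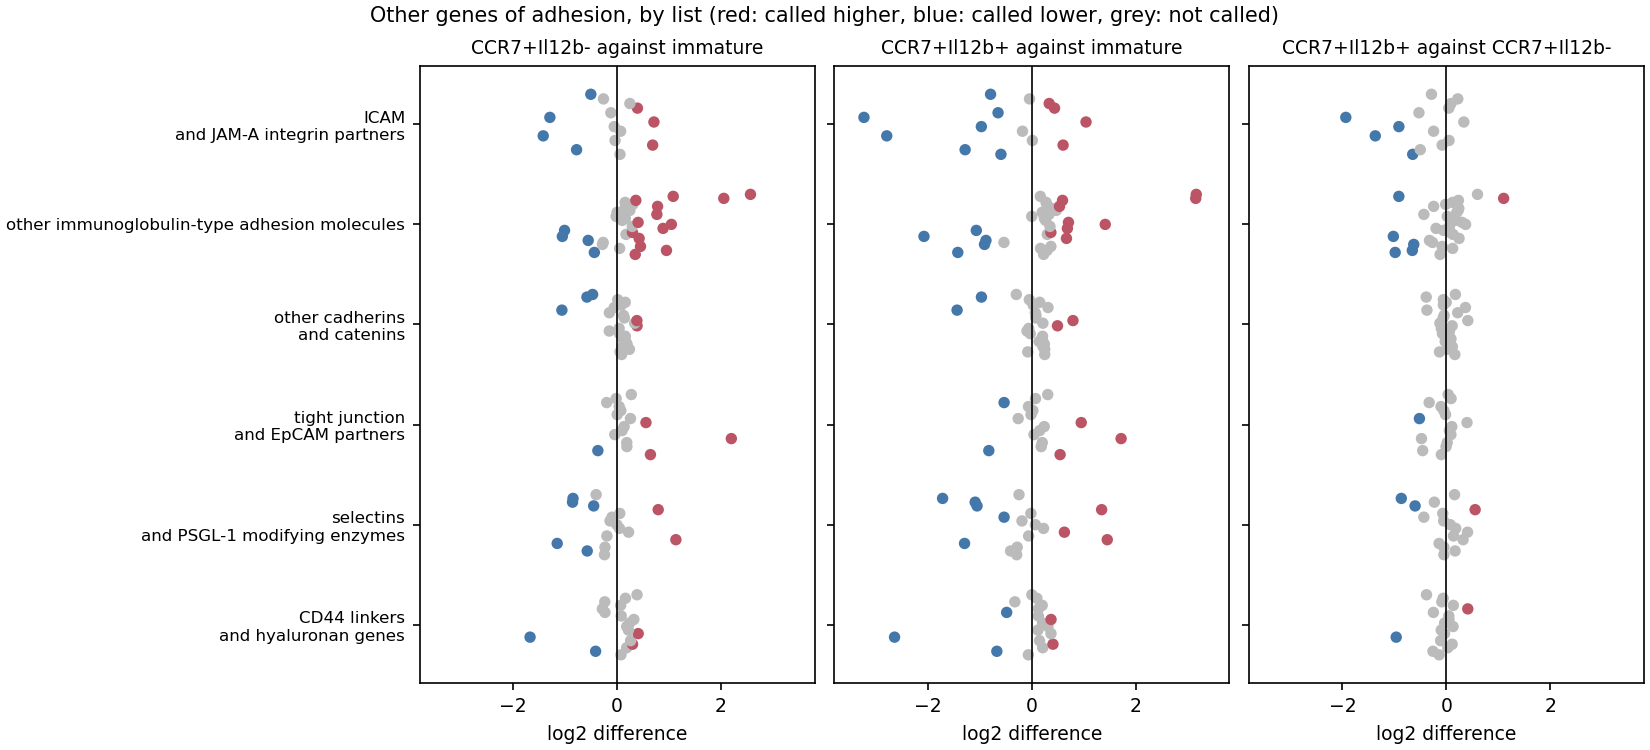
Log2 difference (x axis) of each measured gene in 6 lists of other adhesion genes (y axis) for the 3 comparisons; red is called higher, blue called lower and grey not called, and points are spread vertically for legibility only. Of 120 genes, 45 were called in CCR7+Il12b- and 47 in CCR7+Il12b+ against immature cells, and 16 when the matured fractions were compared. In the middle panel Vcam1 and Pvr lie farthest right and Itgb2 farthest left.

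Over all 6 lists 120 of 129 genes were measured. In CCR7+Il12b- cells 26 rose and 19 fell (37.5% called beside 23.6% of all genes and 35.0% of those above the mark). In CCR7+Il12b+ cells 23 rose and 24 fell (39.2% beside 32.0% and 46.4%). After median centring the splits were 16 up and 23 down, and 17 up and 27 down. Between the matured fractions 3 rose and 13 fell (13.3% beside 7.08%, and 10.8% of genes above the mark).

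Genes whose pattern over the 8 arrays was most like that of a member were found by the root mean square difference of log2 values, each gene centred on its own mean. The search was among 12314 other genes above the mark in some fraction, with predicted genes left out. For F11r the nearest genes were Nlrc5 (0.193) and Cd200 (0.220), beside a spread of F11r itself around its mean of 1.29. For Icam1 they were Ifi30 (0.0632) and Tnip1 (0.0784, own spread 0.583), and for Pecam1 Cbr3 (0.144) and Dpep2 (0.159, own spread 1.01). For Alcam they were Ddx54 (0.0426) and Fth1 (0.0495), for Selplg Krtap1-3 (0.0323) and Zbtb40 (0.0402), and for Cd44 Carns1 (0.0758) and Sbf1 (0.0824). Icam2 was nearest to Susd1 (0.0722) and Trim41 (0.0727), Cdh1 to Slc5a5 (0.0452) and Ank1 (0.0588) and Epcam to Adcyap1r1 (0.0220) and Pcdh8 (0.0295). The spread of the last 3 members and of Selplg was at most 0.173 and that of Alcam was 0.189, so many genes lie close to these members.

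Several members are also genes of other cells, whose markers were measured beside them. Of all genes 23.6% and 32.0% were called in CCR7+Il12b- and CCR7+Il12b+ against immature cells, and 35.0% and 46.4% of those above the background mark. Marker counts here and in the next paragraph stand beside these shares, and no test compared them. Endothelial cells and platelets carry CD31 and JAM-A. In every fraction 8 of 11 endothelial and 4 of 6 platelet markers had means above the background mark, while the endothelial Cdh5, Tek and Emcn and the platelet Pf4 and Ppbp were below it. Of the 11 endothelial markers 1 rose (Kdr, a call that ended when an immature replicate, or replicate 2 or 3 of CCR7+Il12b-, was left out, limma adjusted p = 0.0556 to 0.152, and after median centring, 0.119) and 1 fell (Flt1) in CCR7+Il12b- cells, and Flt1 was the 1 called in CCR7+Il12b+ cells. Their summed linear level ranged from 506 to 519, from 439 to 470 and from 418 to 462 in immature, CCR7+Il12b- and CCR7+Il12b+ samples. Of 6 measured platelet markers 1 rose in each matured fraction (Gp9), a call that ended after median centring in both (0.084 and 0.0831), in the first also with an immature replicate, or replicate 2 or 3 of CCR7+Il12b-, left out (0.058 to 0.142), and in the second without immature replicate 2 (0.0866) or CCR7+Il12b+ replicate 2 (0.215). Plasmacytoid dendritic cells also carry CD31, though they have high BST2 and the sort took cells with no or low BST2. Of 8 of their markers 4 fell and 2 rose in CCR7+Il12b- and 5 fell and 1 rose in CCR7+Il12b+ cells (75% called in each). Their summed level fell along the same order as Pecam1, from 1230 to 1260 to 993 to 1040 and 717 to 763, with all 8 above the mark in immature samples, and its part in the fall of Pecam1 was not tested.

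Some B cell markers were higher in CCR7+Il12b- than in immature cells. The mean of Cd44 was highest in that fraction, though its order between the matured fractions was within the error. Of 9 B cell markers measured, 4 rose in CCR7+Il12b- cells (44.4% called, beside 23.6% of all genes), led by Ms4a1 (1.51 ± 0.17 SE). In CCR7+Il12b+ against immature cells 1 rose, again Ms4a1 (0.913, limma adjusted p = 0.00328), and 1 fell. The summed linear level of the 9 was 616 to 834, against 340 to 411 in immature and 470 to 481 in CCR7+Il12b+ samples. The gate took cells without lineage markers, which the labels do not name one by one. Of the 9, Cd79a, Fcer2a, Cr2 and Ebf1 had means below the mark in every fraction, though Cd79a was among those called higher (0.62, limma adjusted p = 0.0106, and 0.0506 without immature replicate 2). Above the mark in every fraction were 4, among them Ms4a1 and Cd79b, whose own call (0.57, limma adjusted p = 0.0406) ended without immature replicate 1 or 2 or any 1 CCR7+Il12b- replicate (0.0511 to 0.134) and after median centring (0.11). Of 9 CD11b+ dendritic cell markers 3 rose in CCR7+Il12b- cells (33.3% called), namely Sirpa, Esam and Dtx1. Clec4a4, Clec4a2, Clec10a and Mgl2 had means below the mark in every fraction, and Itgam was not called. Esam was called higher in CCR7+Il12b+ against immature cells too (1.41, beside 1.04 in CCR7+Il12b- cells). The call of Dtx1 ended after median centring (limma adjusted p = 0.0769), without CCR7+Il12b- replicate 3 (0.125) and without any 1 immature replicate (0.0505 to 0.132). The summed level of these 9 was 623 to 817, against 380 to 486 in immature and 443 to 511 in CCR7+Il12b+ samples. The part of both in the higher Cd44 was not tested. For Epcam and Cdh1, 6 of 10 epithelial and keratinocyte markers were below the mark in every fraction, and 2 rose in CCR7+Il12b+ cells (Krt8 and Krt14), calls that both ended without immature replicate 2 (limma adjusted p = 0.0779 and 0.0542). That of Krt8 also ended without immature replicate 3 (0.101) or CCR7+Il12b+ replicate 1 (0.208) and after median centring (0.072), and that of Krt14 without CCR7+Il12b+ replicate 2 (0.118). The summed level of the 10 was 273 to 292, 295 to 321 and 350 in both CCR7+Il12b+ samples. Of 6 genes listed as Langerhans cell markers 3 fell in each matured fraction, among them Cd207, the gene of langerin (-1.68 ± 0.25 and -2.16 ± 0.28), and 1 rose, Mfge8 (66.7% called in each). Which cells these transcripts came from was not tested. Of 8 T cell markers 1 rose in CCR7+Il12b- and 2 fell in CCR7+Il12b+ cells, and of 11 neutrophil markers limma called 0 in either, with 1 and 2 at an unadjusted p under 0.05. Of 10 monocyte and macrophage markers 2 rose and 2 fell in CCR7+Il12b- and 1 rose and 3 fell in CCR7+Il12b+ cells (40% called in each). Spic, a transcription factor gene of red pulp macrophages, rose by 3.15 ± 0.22 (SE) and 3.07 ± 0.24, while Lyz2, the gene of lysozyme (-1.45 ± 0.26 and -3.11 ± 0.29), and Cd14 (-1.05 ± 0.24 and -1.64 ± 0.27) fell (limma adjusted p at most 0.00807 for these). The summed linear level of these 10 was 1820 to 2090, 1880 to 2390 and 1430 to 1690 in immature, CCR7+Il12b- and CCR7+Il12b+ samples, and its part in the members' changes was not tested.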

How the data were processed

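One array was measured for each of 8 sorted samples. The authors deposited 1 log2 value per probe set and array. Per the submitters' processing notes these came from RMA as run by oligo. Of its version, its options and a genome build nothing is given in the sources used here. Per the labels' protocols, 3 or 20 ng of RNA was amplified in 2 rounds, but not stated by sample, so an effect of input on the groups was not tested. RMA usually equalises arrays, which hides any shift in RNA content of the whole cell.

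Of 35556 rows, 21789 had exactly 1 symbol in the platform's annotation, and the row with the highest mean was taken per gene (19938 genes; each member had 1 row). Rows with several symbols (1621) or none (12146) were left out. All 8 arrays entered 1 model of 3 group means (limma 3.58.1, R 4.3.3, lmFit and eBayes, 5 residual and 5.86 prior degrees of freedom), tested two-sided, adjusted over all genes and called at an adjusted p under 0.05. The scripts were tested on simulated data. The number of arrays limits the precision. Bounds use the background mark of 4.98 (1194 receptor genes) for samples below it.

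All members are named; of other lists at most 4 (cell markers 3) called genes with the largest change per comparison, and the 2 nearest genes per member. Members and lists were chosen with earlier results of these data known. Alternatives were 3 scalings, 2 filters on low values, the mean of a gene's rows, pairwise fits, array weights, an intensity trend, 2 replicate blocks and leaving out each array. Deviations of same-numbered samples from their group means had correlations from -0.169 to 0.216, with 1 of 7 pairs above 0.1. In groups of 2 or 3 arrays such deviations are tied to each other, so these values cannot show that pairing is absent. The labels do not say that the numbers pair samples, so they were not taken to, and the replicate blocks are alternatives.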

Additional observations from a re-analysis of the deposited data

How the results depend on the processing

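Over 19 alternatives, 463 of 501 recomputed member differences kept their direction and their side of the threshold, 22 lost a call, 6 gained one and 10 changed sign. Of 10 called member differences 7 were called in every alternative: those of F11r, Icam1 and Pecam1 in both matured fractions against immature cells and that of Alcam in CCR7+Il12b+ cells. The others were those of Cd44, Selplg and, between the matured fractions, Pecam1. That last count of 1 member was 0 with arrays centred on their medians, with a fit on the 2 groups compared, with an intensity trend, with a replicate block and with a random replicate block, and ranged from 0 to 1 when 1 array was left out. The 16 other adhesion genes called between the matured fractions ranged from 6 to 17 when 1 array was left out, being 10 without CCR7+Il12b- replicate 1 or 2 or CCR7+Il12b+ replicate 2 and 6 without CCR7+Il12b+ replicate 1, where the group is 1 sample assumed to vary like the others. Sign changes were all of uncalled differences. That of Cdh1 in CCR7+Il12b- against immature cells became -0.0759 after median centring, -0.0908 after quantile normalization, -0.0873 after loess, -0.0385 with array weights and -0.0765 without immature replicate 3 (up to 0.122 without immature replicate 2), and between the matured fractions -0.00616 without CCR7+Il12b+ replicate 2 (0.354 without replicate 1). That of Epcam between the matured fractions became -0.0133, -0.0247 and -0.0297 under the same scalings and -0.164 without CCR7+Il12b+ replicate 2 (0.219 without replicate 1). The cause of these shifts was not tested. Of 108 other called differences of named genes 68 were called in every alternative. The replicate block took the shared number as a term. It changed no member call other than those of Selplg (0.352, CCR7+Il12b+ against immature) and Pecam1 (-0.601, between the matured fractions). Among the cell markers recomputed, it ended the call of Gp9 in CCR7+Il12b- against immature cells. Calls of Krt8, Cd3d, Cd4 and Cd79b in CCR7+Il12b+ against immature cells ended with it too, as did those of Adgre1, Clec4a4 and Lair1 between the matured fractions. Of these, the calls of Cd79b and Clec4a4 also ended without CCR7+Il12b- replicate 3 (limma adjusted p = 0.0518 and 0.101). The random block had a correlation of -0.073. Signals near background limit Cdh1 and Epcam.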
